A study of Mus musculus with 43 samples.

Results

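Imprinted genes are expressed mainly from the copy inherited from one parent. The genes described here were 34 listed imprinted genes of the mouse autosomes, which fall into 17 imprinted clusters, 8 of them with 1 listed gene. They are a list of names, and no measured value entered the rule, although the list was drawn up with earlier results of these data known. They are a small share of the 28929 autosomal protein-coding, lincRNA and antisense genes of the annotation, against which every count below is set. A gene was said to have a peak when at least 1 bp of a peak lay in its body or within 10 kb of either end. The windows made in this way had a median length of 46.0 kb (20.9 to 340.7 kb), against 33.8 kb for all genes, and neighbouring windows overlapped, so that they formed 25 separate regions of 2294.3 kb in all.

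The cells were mouse embryonic fibroblasts (MEFs) from E13.5 embryos, cultured and infected with a retrovirus that expresses a hairpin RNA. Female cells were Setdb1+/+ XistΔA/+ with the Nons hairpin, which targets no gene. Setdb1 depleted cells were Setdb1+/gt XistΔA/+ with shSetdb1, a hairpin against Setdb1, and male cells were Setdb1+/+ X/Y with the Nons hairpin. All embryos had a dam of 129/C57 background and a CAST sire. The gt allele is a gene trap in 1 of the 2 copies of Setdb1, so the depleted cells kept an intact copy. The XistΔA allele lacks the part of Xist needed for silencing and was carried by both groups of female cells and not by the male cells. Reads of the 3 female, 2 depleted and 3 male libraries of each target had been pooled before peaks were called, which left 12 lists and 0 columns for single libraries. The comparison of female with Setdb1 depleted cells asks which marks at imprinted genes depend on Setdb1. No value below has a replicate error, no difference between lists could be tested, and sex, Xist allele and depth cannot be told apart between the female and male lists.

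Each imprinted cluster is governed by a stretch of DNA that is methylated on one parental copy only, a mark set in the egg or the sperm and then kept in every cell of the body. Keeping it depends on the zinc finger protein ZFP57, which binds the hexamer TGCCGC when its CpG is methylated. ZFP57 brings in TRIM28 (KAP1) together with Setdb1, an enzyme that places H3K9me3. The other parental copy often lies under H3K27me3, the mark of Polycomb, and long noncoding RNAs such as Kcnq1ot1 and Airn silence their neighbours in cis.

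The Setdb1 peaks at imprinted genes are shown first by their sequence, since the counts of a motif further on refer to it. Each line gives a stretch of the male Setdb1 peak with a q-value under 0.05 in 1 cluster, outside annotated UTRs, on the plus strand of GRCm38. Within a peak, the stretch with the most hexamers was taken, and then the one closest to the summit. The number of hexamers in a stretch is thus raised by this choice and is no result. The peaks at Grb10, Gnas and Zrsr1 left no such stretch. Capitals mark TGCCGC or its reverse complement GCGGCA.
Plagl1 (chr10:13091025-13091175): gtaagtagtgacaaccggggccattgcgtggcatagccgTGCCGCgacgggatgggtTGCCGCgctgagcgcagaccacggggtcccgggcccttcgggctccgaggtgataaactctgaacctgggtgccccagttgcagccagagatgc
Nnat (chr2:157560296-157560446): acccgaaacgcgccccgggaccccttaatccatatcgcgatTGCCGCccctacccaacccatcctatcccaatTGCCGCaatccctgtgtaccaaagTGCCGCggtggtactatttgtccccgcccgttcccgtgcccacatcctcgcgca
Airn (chr17:12742234-12742384): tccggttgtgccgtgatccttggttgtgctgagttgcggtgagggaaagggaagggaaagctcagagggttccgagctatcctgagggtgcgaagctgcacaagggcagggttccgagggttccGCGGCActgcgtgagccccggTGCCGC
Mest (chr6:30737545-30737695): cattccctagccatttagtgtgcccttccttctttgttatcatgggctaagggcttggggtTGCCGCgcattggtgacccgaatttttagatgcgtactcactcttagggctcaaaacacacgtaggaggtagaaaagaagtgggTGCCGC
Peg3 (chr7:6729286-6729436): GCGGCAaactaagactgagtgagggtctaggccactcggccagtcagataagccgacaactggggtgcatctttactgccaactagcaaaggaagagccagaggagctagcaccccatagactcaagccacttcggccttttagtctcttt
Inpp5f (chr7:128687971-128688121): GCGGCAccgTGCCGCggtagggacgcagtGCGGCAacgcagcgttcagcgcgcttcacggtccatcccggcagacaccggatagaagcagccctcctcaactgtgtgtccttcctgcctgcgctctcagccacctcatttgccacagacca
The first, Plagl1, encodes a zinc finger transcription factor, and its stretch begins in an intron next to a start of the gene. Nnat encodes the membrane protein neuronatin, Airn is the antisense RNA that silences Igf2r, and Mest encodes a protein of the hydrolase family. Peg3 encodes a large zinc finger protein and Inpp5f an inositol phosphatase. The stretches held 2 hexamers at Plagl1, Airn and Mest, 3 at Nnat and Inpp5f and 1 at Peg3.

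In male cells, 14 of the 34 imprinted genes had a Setdb1 peak (41.2%), against 6.92% of all autosomal genes. They were Igf2, Peg3, Usp29, Mkrn3, Mest, Grb10, Igf2r, Airn, Plagl1, Zrsr1, Gnas, Nespas, Nnat and Inpp5f. In the female list 4 of 34 had one (Igf2r, Airn, Plagl1 and Inpp5f), against 2.76% of all genes. The Setdb1 depleted list held 3 (Gnas, Nespas and Nnat), against 0.926%. In each list the share among imprinted genes was above that among all genes, by the most percentage points in the male list. The male list was also the longest, with 3113 autosomal peaks against 1104 and 337, although its pool had the fewest ChIP reads after filtering, 12320583 against 42853662 in female and 18322471 in Setdb1 depleted cells. The extract libraries they were called against held 15109145, 18134299 and 14405821 reads in male, female and depleted cells. Peaks were called with down-sampling, so the reads behind the calls can be fewer and closer in number than the ChIP totals. Restricted to a q-value under 0.05, the male list had a peak at 12 of the 34 genes, against 1.85% of all genes. The female and depleted lists had 0, against 0.325% and 0.252%, shares at which fewer than 1 of 34 genes would carry a peak. When the 418 best peaks of each list were taken, the male list still placed a peak at 8 of the 34 genes, against 0.678% of all genes, the depleted list at 3, against 0.926%, and the female list at 0, against 0.881%.

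**Figure D1:**
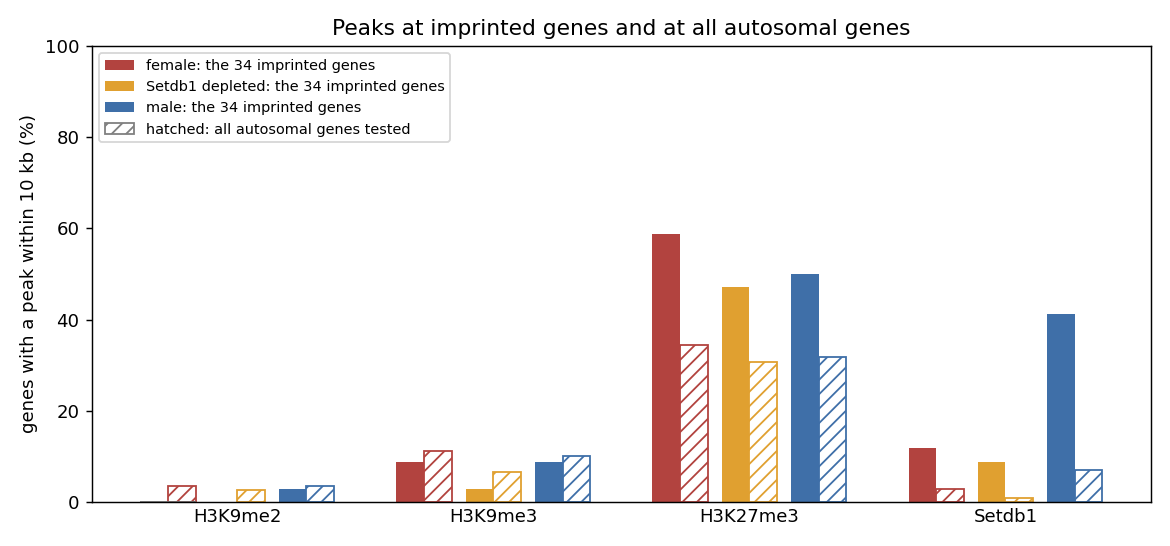
Percent of genes (vertical axis) with a peak in the gene body or within 10 kb, for each target and list. Filled bars are the 34 imprinted genes and hatched bars all 28929 autosomal genes. Filled bars stand above hatched ones for H3K27me3 and Setdb1 (41.2% against 6.92% in male cells) and below them for H3K9me2 and H3K9me3.

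Most Setdb1 peaks at imprinted genes lay near the start of a transcript, 12 of the 16 distinct male peaks within 1 kb. The fold enrichment of a peak is the pileup of reads at its summit over the local background. At Plagl1 it was 9.72 in male cells, 40 bp from a start of that gene, with a −log10 p of 16.6, which placed the peak at rank 60 of 3113. At Nnat the male peak had a fold enrichment of 8.50 and lay 231 bp from the start. At Gnas, which encodes the stimulatory G protein alpha subunit, a male peak of 8.50 lay 652 bp from the start of Nespas, the antisense RNA of that locus. These were among the strongest male peaks on autosomes, both at rank 82.

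The peak shared by Igf2r, whose receptor clears the growth factor IGF2, and Airn had a male fold enrichment of 7.50 in an intron of Igf2r, 875 bp from the Airn start. Grb10 encodes an adaptor that dampens insulin signalling. Its peaks had fold enrichments of 7.29, at 82 bp from a start, and 4.86. At Mest they were 5.50 and 4.25, on either side of a start of the gene, at 454 bp and 341 bp. The Peg3 peak, with 5.47, lay in an intron of Peg3, 1006 bp from its start, and within 10 kb of Usp29, which encodes a ubiquitin protease. Inpp5f had a male peak of 4.33 at 430 bp from an internal start.

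The remaining male peaks had fold enrichments of 4.50 or less. Zrsr1, a splicing factor gene lying inside Commd1, had a fold enrichment of 4.50, and Mkrn3, which encodes a ubiquitin ligase, had one of 4.25 at 285 bp from its start. Igf2, the fetal growth factor, had 1 peak of 4.25 and 1 of 3.65. Plagl1 and Usp29 each had a further peak of 3.65 away from a start. The Setdb1 peaks of Snrpn, Ndn, Magel2, Ube3a, Peg10, Sgce, Impact, Meg3, Dlk1, Rasgrf1, Mcts2, H13, H19, Zim1, Kcnq1, Kcnq1ot1, Cdkn1c, Phlda2, Slc22a18 and Ascl2 numbered 0 in the windows of all 3 lists. A peak that was not called can still be bound below the depth of that list.

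In female cells the peaks at the same places were lower. Plagl1 had a fold enrichment of 4.00 in the female list and Igf2r with Airn one of 4.04, both overlapping the male peak. The third female peak, at Inpp5f, had 4.04, next to 4.33 in male cells. The q-value was over 0.05 for each of these 3 peaks. In the Setdb1 depleted list Nnat had 4.58 and Gnas with Nespas 3.50, where the male list had 8.50 for both, and again neither passed a q-value of 0.05. The peaks of the female and depleted lists did not coincide with each other, and each of the 5 overlapped a male peak.

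**Figure D2:**
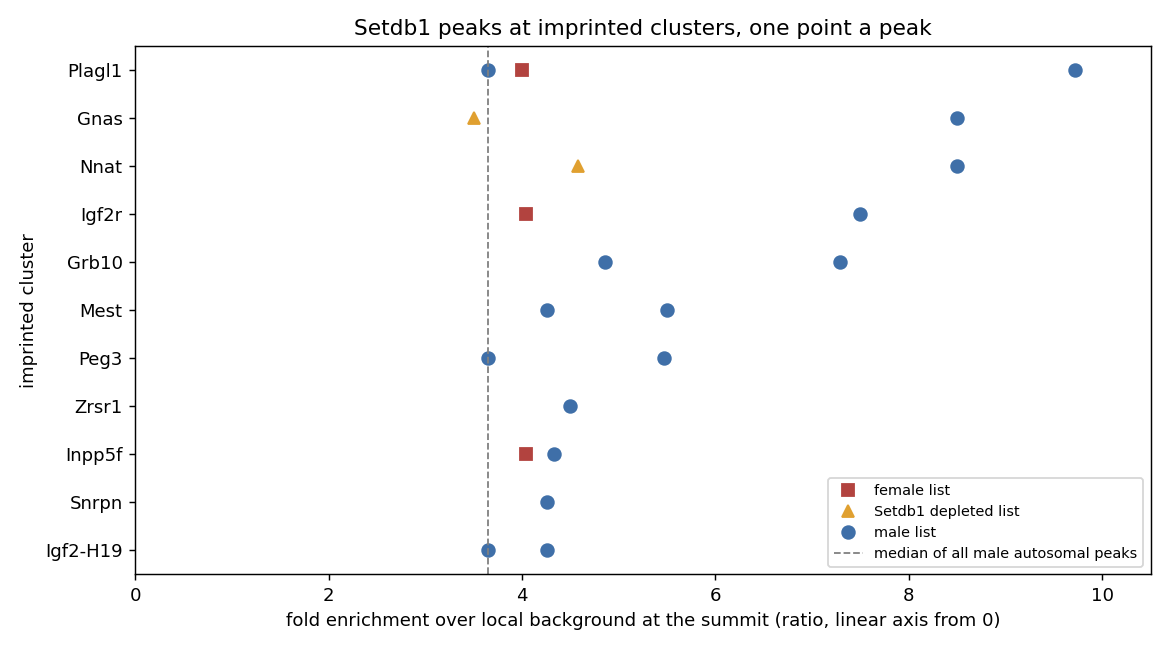
Fold enrichment (horizontal axis, linear ratio to the local background) of every Setdb1 peak at the imprinted clusters (vertical axis), 1 point a peak, with squares for the female, triangles for the Setdb1 depleted and circles for the male list. The dashed line is the median of all male autosomal peaks, 3.65. At Plagl1, Gnas, Nnat and Igf2r the male peak, at 7.50 to 9.72, lies to the right of the female or depleted one, at 3.50 to 4.58.

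Whether these peaks were lost on depletion was read against all genes with a female peak. All 4 imprinted genes with a Setdb1 peak in the female list had none in the depleted list, and so had 94.6% of all genes with a female peak. Over all tested genes, loss was seen at 2.61%, and 0.598% had a peak in both the female and male lists and none in the depleted one, which held for the same 4 imprinted genes. First peaks in the depleted list were found at 3 of the 34 genes (Gnas, Nespas and Nnat) against 0.778% of all genes. The loss at imprinted genes was thus at the background of all genes. The header of the depleted list names gene trap cells with the Nons hairpin, where the labels give shSetdb1, so its hairpin is uncertain.

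The distinct male peaks at imprinted genes numbered 16, and they were set beside the 3113 male autosomal peaks in sequence and position. These measures took no part in listing the genes, but the genes and the hexamer were chosen with earlier results of these data known, so the counts are a description and not independent support. In the 300 bp around the summit, 9 of 16 (56.2%) held TGCCGC on either strand, against 2.79% of all male peaks. The same 9 held at least 2 copies, against 0.964%. Of the 16, 12 (75.0%) had their summit within 1 kb of an annotated transcript start, against 8.83%. Among all 275 male peaks within 1 kb of a start, these 12 included, 9.09% held the hexamer and 4.73% held at least 2. Those 275 peaks had a median of 4 CpG and 38.0% GC and so are not alike in base composition. The part of CpG content in the count of hexamers was not tested. The median CpG count in these 300 bp was 19.5 at imprinted genes and 2 over all male peaks, and the median GC content was 58.0% and 38.3%. Repeat-masked bases made up over 50% of the sequence around 1 of 16 summits and around 44.0% of all male ones. Of the 16 peaks, 10 (62.5%) passed a q-value of 0.05, against 25.4% of all, and 5 of 16 (31.2%) overlapped a peak of another list against 2.54%. All 3 female and both depleted peaks at imprinted genes held at least 2 hexamers, against 0.362% and 0.593% of the autosomal peaks of those lists. These are descriptions of 1 pooled list each, and a hexamer is a match of letters, not a bound site.

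Of the 30 male autosomal peaks with at least 2 hexamers, 9 lay in the windows of the listed imprinted genes and 3 in those of other imprinted genes. A further 2 lay outside the windows but within 50 kb of the start of a listed gene, and were picked out after their values were seen. One was 12.6 kb upstream of the start of Meg3, the maternally expressed long noncoding RNA, with a fold enrichment of 9.11 and rank 78. The other was 30.2 kb upstream of Rasgrf1, which encodes a guanine nucleotide exchange factor, with 9.72 and rank 60. In both clusters the methylated control region is known to lie upstream of these starts and not at a promoter. The sequences of these 2 peaks are given with the same capitals. The peaks were taken from those with at least 2 hexamers, and the stretches were chosen by the rule given above. Repeated hexamers in them were thus fixed in advance.
Meg3 (chr12:109528342-109528492): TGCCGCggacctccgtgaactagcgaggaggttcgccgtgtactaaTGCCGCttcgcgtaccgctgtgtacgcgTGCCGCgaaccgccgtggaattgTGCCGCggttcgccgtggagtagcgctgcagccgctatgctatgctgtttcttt
Rasgrf1 (chr9:89879743-89879893): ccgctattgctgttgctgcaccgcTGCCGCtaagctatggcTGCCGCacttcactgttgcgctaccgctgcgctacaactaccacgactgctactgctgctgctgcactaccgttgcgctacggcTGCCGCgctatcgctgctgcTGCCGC
The stretches hold 4 hexamers each. For H19, whose control region is also upstream, the nearest male peak was one at Igf2, 66.6 kb from the H19 start and without the hexamer.

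The hexamer was also frequent at the starts of the imprinted genes themselves, whether or not they had a peak. Within 1 kb of the start of the gene, 20 of 34 imprinted genes (58.8%) held it, against 38.7% of all genes, with a mean of 1.65 copies against 0.638. At least 5 copies were found at 5 of 34 (14.7%) against 0.971%, namely Nnat and Peg3 with 6 each and Airn, Nespas and Usp29 with 5 each. All 5 are among the 14 genes marked, from general knowledge, as having a germline differentially methylated region at the start. The Peg3 and Usp29 starts are adjacent and share most of their sequence. These 5 genes each had a male Setdb1 peak, Peg3 and Usp29 sharing one, against 11.4% of the 281 genes with at least 5 copies. Below that, copies within 1 kb of this start did not go with a peak anywhere in the window. Of the 15 imprinted genes with 1 to 4 copies 3 had a male peak, against 7.9% of all such genes, and Ascl2, Kcnq1, Kcnq1ot1 and Mcts2, with 3 copies each, had none. Of the 14 with 0 copies 6 had one (Mest, Plagl1, Grb10, Inpp5f, Zrsr1 and Igf2), against 6.24%. Only 1 start per gene entered this count. From it, the nearest male summit lay 14.0 kb away at Mest, 30.5 kb at Plagl1, 12.4 kb at Grb10 and 76.7 kb at Inpp5f. Around those summits there were 2, 2, 3 and 3 hexamers. The peaks at Zrsr1 and Igf2 and the weaker ones at Plagl1 and Grb10 held 0, and the weaker one at Mest 3. A narrower count took 250 bp before to 50 bp after each RefSeq start. There 9 of 27 imprinted genes (33.3%) held the hexamer, against 13.1% of all RefSeq genes. At least 2 copies were found at 1 of 27 (3.7%), against 1.79%. In this count Peg3, Usp29 and Airn held 0 and Nnat 1, and Nespas was not among the 27.

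H3K9me3 is a product of Setdb1, but the paper names other H3K9 methyltransferases too. The mark was found at a share of the imprinted genes near or below that of all genes, a difference of few genes. In female cells 3 of 34 genes had a peak (Usp29, Ube3a and Rasgrf1), against 11.2% of all genes. In Setdb1 depleted cells 1 of 34 had one (Usp29), against 6.59%. In male cells there were 3 (Kcnq1, Kcnq1ot1 and Rasgrf1), against 10.0%. Peaks of this list were called in 5 kb steps with a median width of 15 kb, so a mark confined to the width of a Setdb1 peak may not be resolved. None of the 16 male Setdb1 peaks at imprinted genes lay within a male H3K9me3 peak, whereas 17.0% of all male autosomal Setdb1 peaks did.

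Rasgrf1 was the only imprinted gene with an H3K9me3 peak in both the female and male lists and none in the depleted list, a pattern that 3.13% of all genes showed. The peak was the same 15 kb, chr9:89925001-89940000, in both lists, within the gene. Loss from the female to the depleted list concerned Rasgrf1 and Ube3a, the ubiquitin ligase gene of the Snrpn cluster, which is 2 of 3 (66.7%) against 56.8% of all genes with a female peak. Counted over all genes, loss was seen at 6.34% and a first peak in the depleted list at 1.77%, the latter at 0 of the 34. At Usp29 the female peak (chr7:6940001-6950000) and the depleted peak (chr7:6960001-6970000) were different places of 10 kb each. Total H3 reads, against which peaks were called, differed there by a log2 value (depleted minus female) of 0.33 and −0.32. At the female peaks of Rasgrf1 and Ube3a the H3 difference was −0.21 and 0.10. The part of H3 in these calls was not tested. The largest H3K9me3 peak at these genes was male, 50 kb at chr7:143210001-143260000 over Kcnq1ot1, with none called in either list of female cells. The authors report a subtle cross-reactivity of the H3K9me3 antibody with H3K27me3, which they judged unlikely to matter. The Kcnq1ot1 peak overlapped a male H3K27me3 peak. The Rasgrf1 peak lay under H3K27me3 peaks in the female list and beside one in the male list. At Usp29 and Ube3a the lists with H3K9me3 had no H3K27me3. The part of cross-reactivity was not tested.

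H3K9me2 was called at 0 of the 34 genes in female and in Setdb1 depleted cells, against 3.43% and 2.58% of all genes. In male cells it was called at Ube3a alone, 1 of 34 against 3.61%. Loss, gain and presence in both Setdb1+/+ lists alone were seen at 0 of 34, against 2.07%, 1.22% and 0.83% of all genes. For this mark the imprinted genes thus gave no value to compare between cells.

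H3K27me3 was found at more imprinted genes than either H3K9 mark in every list. Peaks were found at 20 of 34 genes in female cells against 34.5% of all genes, at 16 in Setdb1 depleted cells against 30.8%, and at 17 in male cells against 31.8%. The mark covered 542.8 kb of the windows in female cells, 371.4 kb in Setdb1 depleted cells and 486.7 kb in male cells. As shares these were 23.7%, 16.2% and 21.2% of the windows, against 12.1%, 9.81% and 10.9% of the windows of all genes. Much of this came from 1 cluster. Without the Kcnq1 cluster the shares of the imprinted windows were 14.9%, 10.8% and 11.1%, which in depleted and male cells is close to the windows of all genes. H3K27me3 lists had no score, and the depth of their libraries is unknown from the files.

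**Figure D3:**
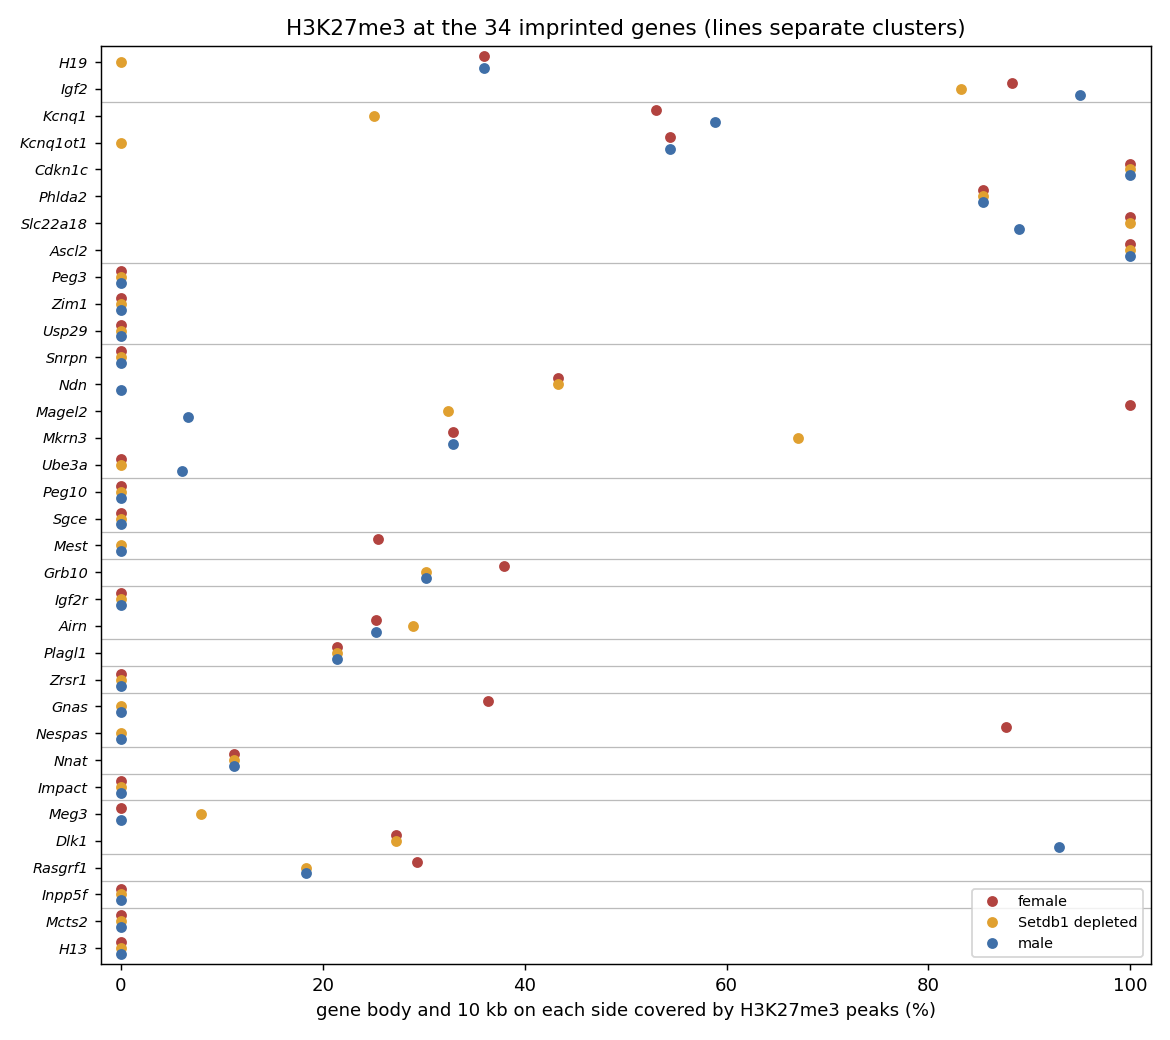
Percent of each gene's window (horizontal axis) covered by H3K27me3 peaks in the female, Setdb1 depleted and male lists, with the 34 genes on the vertical axis. Lines separate clusters. Cdkn1c and Ascl2 are at 100% in all 3 lists, whereas H19 and Kcnq1ot1 are at 36.0% and 54.4% in both female and male cells and at 0 in Setdb1 depleted cells.

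H3K27me3 was lost in Setdb1 depleted cells at 5 of the 20 imprinted genes that had it in female cells, namely H19, Kcnq1ot1, Mest, Gnas and Nespas. That is 25.0%, and 25.4% of all genes with a female peak lost theirs, so the imprinted genes stood at the background. Over all genes tested, 8.78% lost the mark, 5.03% gained a first peak and 4.4% had it in both the female and male lists and not in the depleted one. The gain concerned 1 imprinted gene, Meg3, at which 4.0 kb of the window, or 7.89%, was covered. Only H19 and Kcnq1ot1 had the mark in both Setdb1+/+ lists and not in the depleted list. The other 3 genes were without it in male cells too, so for them the female list stood alone. Total H3 reads in the female H3K27me3 peaks at imprinted genes had a median log2 difference of −0.005 (depleted minus female, −0.13 to 0.36 over 18 peaks). The value of 0.36 was at a 10 kb peak in Kcnq1, chr7:143140001-143150000, which neither the depleted nor the male list had.

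The change that covered the most bases was in the Kcnq1 cluster. There Kcnq1 encodes a potassium channel subunit, Kcnq1ot1 is the paternal antisense RNA that starts inside it, Cdkn1c encodes an inhibitor of the cell cycle, Phlda2 a protein that limits growth of the placenta, Slc22a18 a membrane transporter and Ascl2 a transcription factor of the placenta. The windows of these 6 genes held 264.8 kb of H3K27me3 in female, 169.8 kb in Setdb1 depleted and 279.8 kb in male cells. A peak of 90 kb, chr7:143165001-143255000, had the same ends in the female and male lists and was missing from the depleted list. It covered 54.4% of the Kcnq1ot1 window. Its H3 reads differed by a log2 value of 0.04 between depleted and female cells. The male H3K9me3 peak of 50 kb overlapped it.

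The flanks of the cluster had the mark in every list. Cdkn1c, Slc22a18 and Phlda2 lay under 1 peak of 90 kb, chr7:143420001-143510000, with the same ends in the female and depleted lists, which covered 100% of the Cdkn1c window and 85.4% of that of Phlda2. In male cells this peak was called as 2 pieces. At Ascl2 the peak was 110 kb in female and male cells and 60 kb in depleted cells, although it covered 100% of the gene's window in each. Kcnq1 itself was covered to 53.0%, 25.1% and 58.9% in female, depleted and male cells. None of these lists separates the maternal from the paternal copy, so which copy carried a peak was not measured.

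**Figure D4:**
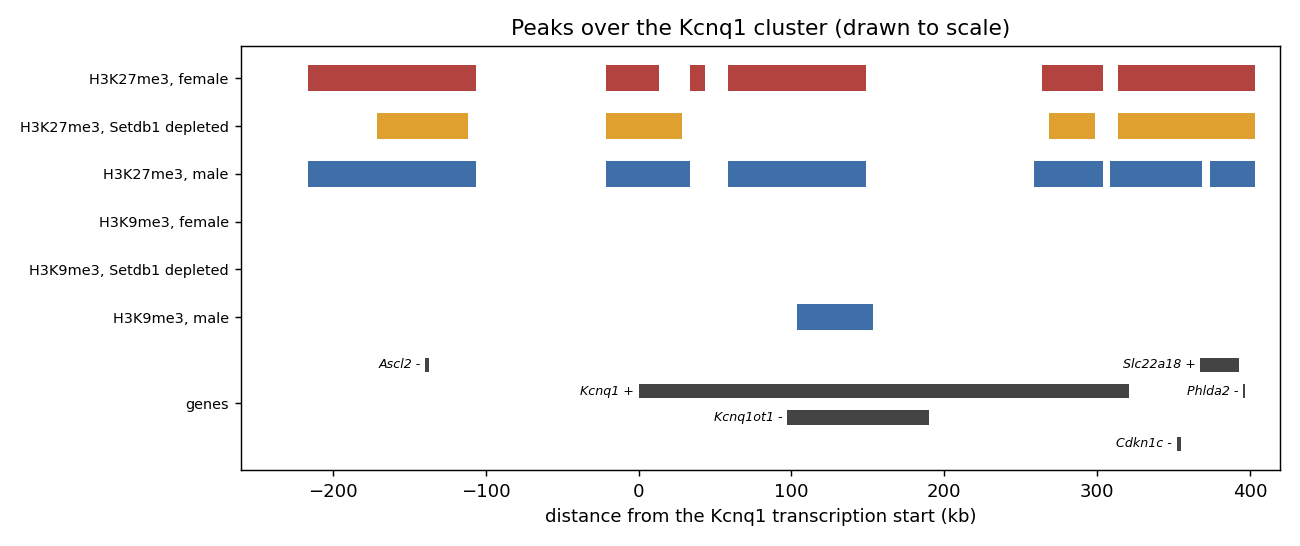
H3K27me3 and H3K9me3 peaks that touch the windows of the Kcnq1 cluster, drawn to scale against the distance in kb from the Kcnq1 transcription start, with the genes and their strands below. The 90 kb peak over Kcnq1ot1 is present in the female and male rows and missing from the Setdb1 depleted row. H3K9me3 appears in the male row alone.

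In the Igf2-H19 cluster, H19, the maternal long noncoding RNA, had 36.0% of its window covered in female and in male cells by the same 25 kb peak and 0 in depleted cells. Igf2 stayed covered, to 88.3% in female, 83.2% in depleted and 95.0% in male cells. In the Gnas cluster a 30 kb peak covered 87.7% of the Nespas window and 36.4% of the Gnas window in female cells, and neither of the other lists had it. Mest likewise had 25.5% of its window covered in female cells alone. The Setdb1 peaks of the male list at Gnas and Mest thus lay at loci with no male histone peak of any of the 3 marks.

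Other clusters differed in where the mark lay more than in how many genes had it. In the Snrpn cluster, which holds a gene for a splicing protein and the MAGE family genes Ndn and Magel2, 1 peak of 65 kb covered 100% of the Magel2 window in female cells. The depleted list had 25 kb on either side and covered 32.4% of that window, and the male list covered 6.66%. Ndn was covered to 43.3% in female and depleted cells and to 0 in male cells, and Mkrn3 to 32.9% in female and male and 67.1% in depleted cells. Ube3a had H3K27me3 in male cells alone (6.08%). Dlk1, which encodes a membrane protein related to Notch ligands, was covered to 27.3% in female and depleted and 92.9% in male cells. Grb10 had 38.0%, 30.2% and 30.2%, and Rasgrf1 29.3%, 18.3% and 18.3%, in female, depleted and male cells. Airn had 25.3%, 28.9% and 25.3%, Plagl1 21.4% and Nnat 11.2% in each list.

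No histone peak in any list was found at 11 of the 34 genes (32.4%), against 47.5% of all genes. They were Peg3, Zim1, Snrpn, Peg10, Sgce, Igf2r, Zrsr1, Impact, Inpp5f, Mcts2 and H13. They include Peg10, which derives from a retrotransposon, Sgce, which encodes epsilon-sarcoglycan, Impact, a regulator of translation, and H13, which encodes a signal peptide peptidase and has the retrogene Mcts2 in an intron. Of these 11, Peg3, Igf2r, Zrsr1 and Inpp5f had a male Setdb1 peak. Only Igf2 and Grb10 had a Setdb1 peak that lay within a histone peak of the same cells, H3K27me3 in both cases, with 2 peaks each. That is 4 of 16 male Setdb1 peaks (25.0%), against 15.3% of all male autosomal Setdb1 peaks.

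The cells were checked against their label, since one protocol label names NSCs (neural stem cells). All 8 listed neural stem cell genes, among them Sox2 and Pax6, had an H3K27me3 peak in each list, whereas of 10 fibroblast genes 1 (Twist1) had one in female cells and 0 in the other lists, against 30.8% to 34.5% of all genes. The fibroblast gene Vim had an H3K9me2 peak in female cells and an H3K9me3 peak in male cells. A male Setdb1 peak lay at 3 of the 10 fibroblast genes and at 0 of the 8 neural stem cell genes, against 6.92% of all genes. At so low a share, 0 of 8 does not set the neural genes apart. In the female list 1 fibroblast gene (Col3a1) had a Setdb1 peak and 0 neural stem cell genes, against 2.76% of all genes. Peaks carry no expression, so the check is only of where a repressive mark lay.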

How the data were processed

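ChIP-seq libraries for H3K9me2, H3K9me3, H3K27me3 and Setdb1 (32), total H3 (8) and whole cell extract (3) made up the 43 samples, grouped by the labels. The authors aligned reads with Bowtie2 to mm10, pooled libraries and called broad histone peaks with Seqmonk against H3. These deposited lists give peak positions in steps of 5 kb and log2 H3 read values scaled by the authors, with no score for the mark. For Setdb1 the authors ran MACS2 against the extract library with down-sampling at p under 0.001. Per the file headers, each peak has a pileup (read coverage, a signal), a fold enrichment (a ratio over the local background) and significance as −log10 of its p-value and of its q-value. Ranks and values of Setdb1 peaks depend on the depth of each pool. Replicate columns numbered 0.

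Overlaps of at least 1 bp between the deposited peaks and GENCODE M21 genes with flanks of 10 kb were counted in Python 3.11.15 (numpy 2.4.6, pandas 2.3.3), after a check on simulated intervals. Sequence came from GRCm38, the same assembly as mm10, beyond whose chromosome ends 0 peaks lay. In the text, all 34 listed genes are accounted for, with each Setdb1 peak in their windows. The members, gene lists and hexamer were chosen with earlier results of these data known. Alternatives were the gene body alone, a flank of 20 kb, 10 kb around the start, an overlap of 50%, stricter peaks (histone peaks of at least 15 kb, Setdb1 q under 0.05) and equal numbers of peaks per list.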

Additional observations from a re-analysis of the deposited data

How the results depend on the processing

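Each count over the 34 genes and each share of their windows covered was recomputed under 6 alternatives. With 10 kb around the transcription start, 15 of 29 values moved. The genes with a Setdb1 peak fell to 8 in male cells (2.71% of all genes) and to 1 in female cells (0.989%), with 1 lost on depletion (0.961%). The nearest male summit lay outside this window at Gnas (11.8 kb from the start), Grb10 (12.4 kb) and Mest (14.0 kb). It also did at Igf2r (27.4 kb), Plagl1 (30.5 kb) and Inpp5f (76.7 kb). H3K9me3 was then at 1 gene in female cells (6.94% of all genes), lost on depletion (1, against 3.99%). It was at 0 in depleted and male cells (4.44% and 6.17% of all genes). It covered 0.201%, 0 and 0 of the windows in female, depleted and male cells. H3K9me2 was at 0 in male cells (2.12% of all genes), covering 0. H3K27me3 covered 40.2%, 32.3% and 32.1% in female, depleted and male cells. With stricter peaks the Setdb1 counts were 0 in the female and depleted lists (0.325% and 0.252% of all genes). Setdb1 was lost at 0 and gained at 0 (0.283% and 0.211%). H3K9me3 was at 0 genes in depleted cells (4.68% of all genes), covering 0. With equal numbers of peaks the Setdb1 count was 8 in male cells and 0 in female cells (0.678% and 0.881% of all genes). Setdb1 was then lost at 0 (0.802%), and 1 gene gained H3K9me3 (2.58% of all genes). With the gene body alone 1 gene lost H3K9me3 (4.07% of all genes), and H3K27me3 covered 19.3% in female and 11.3% in depleted cells. With a flank of 20 kb H3K9me3 was at 2 genes in depleted cells (8.37% of all genes) and gained at 1 (2.12%). H3K27me3 was gained at 0 (5.67% of all genes). With an overlap of 50% H3K27me3 was at 13, 10 and 11 genes in female, depleted and male cells (22.7%, 20.8% and 20.9% of all genes). It covered 16.7% in male cells, and 1 gene lost H3K9me3 (4.82% of all genes). Without the Kcnq1 cluster, an alternative chosen after seeing the data, H3K27me3 covered 14.9%, 10.8% and 11.1% in female, depleted and male cells. The cause of these shifts was not tested. H3K27me3 was lost at a number of imprinted genes within 1.5 times of 5 under every alternative, and the male Setdb1 share stayed above that of all genes. No paired analysis was possible because the lists hold pooled libraries and no replicate columns. The Setdb1 calls of female and depleted cells rest on pileups of at most 7 reads at these genes, which limits what their absence elsewhere can show.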

Other observations

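Of 46 further imprinted genes, 43 were found among the genes tested, and 11 had a male Setdb1 peak (25.6%, against 6.92% of all genes). Blcap and Copg2 shared theirs with Nnat and Mest. Commd1 shared 1 with Zrsr1 and had another of 3.04 with 1 hexamer. Nap1l5, a retrogene in an intron of Herc3, had a male peak 46 bp from its start with a fold enrichment of 8.51 and 3 hexamers around the summit. Within Trappc9, a peak of 4.50 with 3 hexamers lay 284 bp from the start of Peg13, a noncoding RNA, and Cdh15, a cadherin gene, had a peak of 4.50 with 2. Klf14, Slc38a4, Gab1 and Cobl had male peaks of 5.00, 4.15, 4.25 and 3.50 with 0 hexamers. The female list held a Setdb1 peak at 0 of the 43, against 2.76% of all genes, and the depleted list at 3 (Blcap, Copg2 and Sfmbt2), against 0.926%. H3K27me3 was found at 19, 20 and 16 of the 43 in female, depleted and male cells (44.2%, 46.5% and 37.2%, against 34.5%, 30.8% and 31.8% of all genes). It was lost on depletion at Asb4 and Cobl (4.65%, against 8.78%) and gained at Mirg, Ppp1r9a and Tnfrsf23 (6.98%, against 5.03%). H3K9me3 was found at 7, 2 and 2 of them (16.3%, 4.65% and 4.65%, against 11.2%, 6.59% and 10.0%), and was lost at Herc3, Klf14, Osbpl5, Phactr2 and Tnfrsf23 (11.6%, against 6.34%).

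Among the 20 genes for factors that keep or read imprints, H3K27me3 was found at 9, 10 and 7 in female, depleted and male cells (45.0%, 50% and 35.0%, against 34.5%, 30.8% and 31.8% of all genes). A Setdb1 peak lay at Zfp57 itself in the female list (1 of 20, against 2.76%) and at Atf7ip, Dnmt3a and Hells in the male list (3 of 20, against 6.92%), and H3K9me3 lay at Setdb1 in the female list alone (1 of 20, against 11.2%). Outside imprinted genes, 16 male peaks held at least 2 hexamers, the strongest of them 4174 bp upstream of a Habp4 start with 6 hexamers, a fold enrichment of 28.0 and rank 6, which was also called in female cells. These genes were picked out after their values were seen.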
